A study of Homo sapiens with 6 samples.

Results

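The U2AF1 S34F mutation has been reported to change the splicing of 10 human genes followed here in bronchial epithelial cells: STRAP, CHCHD7, GNAS, MACROH2A1, DEK, PICALM, CTNNB1, MED24, CEP164 and ITGB3BP. Their rows were taken from the deposited isoform counts by matching the Ensembl gene ID to the symbol, which found all 10 among 24220 genes and loci. Together they held 153 of 63224 isoforms. The cells were HBEC3kt, a line grown from human bronchial epithelium and immortalised in culture, and full-length poly(A) cDNA was read on a nanopore instrument, so that 1 read covers many exons of 1 molecule. A wild-type group of 3 libraries was compared with a U2AF1 S34F group of 3 libraries, with no drug and no time course in the labels. Each genotype is represented by 2 cell isolates: replicate 1 is isolate 1, replicate 2 is isolate 2, and replicate 3 is a further library of isolate 2. In the titles replicate 3 of either genotype carries the mark B2 and the others B1, and no label explains the marks. How the mutation was put into the cells, and whether an isolate is 1 clone, was not given in the sources used here. P-values therefore rest on the spread between these libraries, part of which may be technical. For splice choices the main test took 1 trended spread shared by all choices, not that of each choice.

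U2AF1 encodes the small subunit of U2AF, the factor that recruits the spliceosome to the end of an intron. The small subunit contacts the AG at the 3′ splice site and the bases beside it. Serine 34 lies in a zinc finger of that RNA contact, and its replacement by phenylalanine is recurrent in lung adenocarcinoma and in myeloid neoplasms. The mutant protein is known to favour exons that follow CAG over exons that follow TAG. For MACROH2A1 the reported change is less use of the macroH2A1.1 exon, and for GNAS more use of exon 3. A reported direction for the other 8 genes was not given in the sources used here.

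Sequences of the splice choices on which the results turn follow, read from GENCODE release 29 transcripts of the same exon chain, with positions from the deposited hg19 models. Capitals mark the last 3 bases of an intron, or the trinucleotides between neighbouring 3′ splice sites, and all lines run 5′ to 3′ on the gene's strand. The pair of mutually exclusive MACROH2A1 exons (minus strand) differ in the base before the AG: the macroH2A1.2 exon, with the 20 intron bases before it, spans chr5:134688636-134688755 and follows CAG, and the macroH2A1.1 exon spans chr5:134686513-134686623 and follows TAG.
macroH2A1.2 exon: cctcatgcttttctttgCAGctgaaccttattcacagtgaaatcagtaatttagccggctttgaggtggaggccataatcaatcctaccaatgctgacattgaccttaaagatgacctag
macroH2A1.1 exon: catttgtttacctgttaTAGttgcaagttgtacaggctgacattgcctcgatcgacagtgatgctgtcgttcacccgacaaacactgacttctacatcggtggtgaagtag

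GNAS exon 3 (plus strand), whose use separates the long from the short form, spans chr20:57473976-57474040 with 20 intron bases and follows AAG. The next exon begins at either of a pair of sites 3 bases apart, shown at chr20:57478566-57478600. The upstream one follows CTG, which is not an AG, and the downstream one follows CAG.
GNAS exon 3: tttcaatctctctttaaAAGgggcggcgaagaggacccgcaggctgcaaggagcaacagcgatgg
GNAS next exon: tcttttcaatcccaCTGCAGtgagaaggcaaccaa

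The STRAP exon that passed the test is the third of 11 exons of the annotated transcript, is coding over all of its 136 bases, and lies at chr12:16036475-16036610 on the plus strand. The bases before it were not read, so all of its letters are exon.
STRAP exon: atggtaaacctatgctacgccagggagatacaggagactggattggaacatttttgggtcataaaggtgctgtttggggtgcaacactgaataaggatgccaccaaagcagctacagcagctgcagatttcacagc

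The libraries held 1286512 to 1720292 assigned reads in wild-type and 451540 to 1014868 in S34F cells, and the 10 genes together had 2952 to 4811 reads per wild-type and 1274 to 2139 per S34F library. Reads at loci without a gene ID made up 8.22% to 9.86% of the B1 libraries and 17.5% to 19% of the B2 libraries, so replicate 3 of each genotype stood apart. All 10 markers of bronchial basal epithelium had reads (summed level 5265 to 6569 CPM, reads scaled to library size, in wild-type and 5810 to 6605 in S34F cells). None of the 5 secretory, 6 fibroblast or 4 endothelial markers had a read, and 1 of 5 ciliated and 1 of 6 blood markers had 6 and 15 reads in all. U2AF1 itself was at 500, 569 and 303 CPM in wild-type and 535, 418 and 242 in S34F libraries, lowest in B2 in both genotypes (log2 difference −0.22, SE 0.28, edgeR quasi-likelihood test, Benjamini-Hochberg adjusted p = 0.764). The counts carry no base calls, so the mutation itself could not be seen in them.

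Splice choices were read from the exon chains of the isoforms. A cassette exon is set against the intron that skips it, an alternative site against the site sharing the intron's other end, and a retained intron against its splicing, and each choice is given as the percentage of informative reads with the form. Of the 10 genes, 9 had at least 1 choice with 10 or more informative reads in every library, 75 choices in all: 43 cassette exons, 19 alternative 3′ sites, 7 alternative 5′ sites and 6 retained introns. In the edgeR quasi-likelihood test at an adjusted p of 0.05, 4 of the 75 changed, 1 higher and 3 lower in S34F cells, against 1.22% of all 19153 choices tested (0.35% higher, 0.872% lower). They lie in 3 genes, MACROH2A1, STRAP and CHCHD7, out of 9, while 5.5% of all genes with a tested choice held a call. The choices of a gene share reads and are not independent. The 10 genes were also chosen with earlier results of these data known, so these shares are no independent test of the list. At an unadjusted p of 0.05 there were 11 of 75 (9.38% of all choices), and in 20 of 75 the genotypes' percentages did not overlap (14% of all choices). The median log2 odds ratio over the 75 was 0.03 and its median size 0.41, beside −0.03 and 0.41 over all choices. None of the 4 calls held in limma on log odds, which called 0 of the 75 (10 at an unadjusted p of 0.05) and 0 of all 19153 choices (1722 at an unadjusted p of 0.05).

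**Figure D1:**
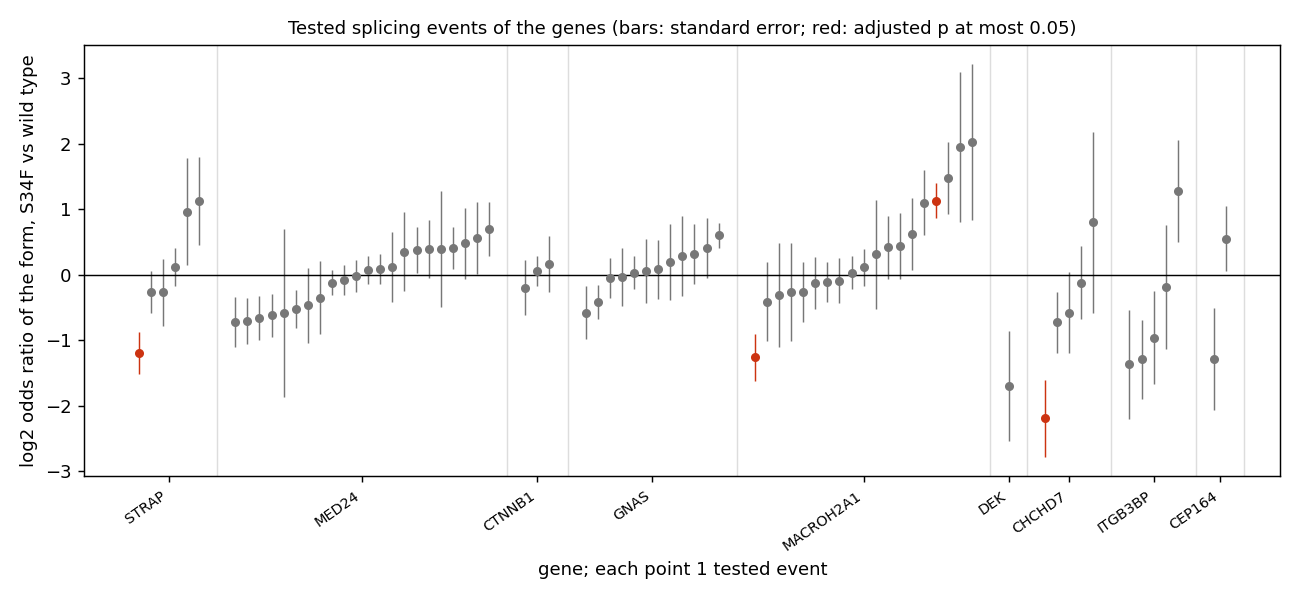
Each point is 1 tested splice choice of 9 genes, with the log2 odds ratio of the form in S34F against wild-type libraries on the y axis and bars of 1 standard error. The 4 choices with an adjusted p of at most 0.05 are red, and most others lie within 1 unit of 0.

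MACROH2A1 encodes a histone variant with a large macrodomain, and its mutually exclusive exons give macroH2A1.1, whose macrodomain binds ADP-ribose, and macroH2A1.2, which does not. In S34F cells the macroH2A1.2 exon was used more and the macroH2A1.1 exon less, which is the reported direction for macroH2A1.1. The macroH2A1.2 exon was in 81.9%, 74.3% and 74.2% of informative reads in wild-type libraries 1 to 3 (322 of 393, 136 of 183 and 244 of 329). In S34F libraries it was in 91.9%, 90.9% and 82.9% (137 of 149, 130 of 143 and 189 of 228). Every S34F library was above every wild-type library, with S34F replicate 3 just above wild-type replicate 1. The means were 76.8% ± 4.44 (SD, n = 3) and 88.6% ± 4.95 (SD, n = 3), a log2 odds ratio of 1.13 (SE 0.27, edgeR quasi-likelihood test, adjusted p = 0.00397, and 0.0301 with the replicate block). With both libraries of isolate 2 summed, so that each isolate counts once, the call was lost (edgeR adjusted p = 0.343), and without the B1/B2 term it was 0.286. Leaving out 1 library ended this call for wild-type 2 (0.0818), wild-type 3 (0.0666) and S34F 1, 2 and 3 (0.141, 0.0677 and 0.0835), and kept it for wild-type 1 (0.00941), as edgeR adjusted p.

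The macroH2A1.1 exon of 91 bases was in 7.57%, 11.8% and 13.8% of reads in wild-type libraries and 3.38%, 2.9% and 7.33% in S34F libraries. S34F replicate 3, marked B2, was the highest of its group and just below the lowest wild-type library, and the B2 library was also the highest of the wild-type group. The log2 odds ratio was −1.26 (SE 0.36, edgeR quasi-likelihood test, adjusted p = 0.0385). The call was lost with the replicate block (adjusted p = 0.102), with isolate 2 summed (0.449) and without any 1 of the 6 libraries (0.0558, 0.232 and 0.271 without wild-type 1, 2 and 3, and 0.224, 0.201 and 0.286 without S34F 1, 2 and 3). Both exons are read from the same molecules, so the pair of calls is not independent. Reads with neither exon count against both exons, so the calls are not exact mirror images.

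Molecules were classed by the exon chain of the isoform to which their reads were assigned, over isoforms that span the pair. Single reads were not inspected. Molecules with the macroH2A1.1 exon alone, counting also a form of it that is 4 bases shorter, made up 10.4%, 15.6% and 17.1% of wild-type and 6.54%, 6.29% and 10% of S34F reads. All S34F libraries were below all wild-type libraries, with means of 14.3% ± 3.51 (SD, n = 3) and 7.62% ± 2.1 (SD, n = 3). Molecules with neither exon were also rarer in each S34F library, at 1.31%, 2.8% and 6.28% against 7.59%, 9.68% and 7.94%. Those with the macroH2A1.2 exon alone were at 75.5% ± 5.28 (SD, n = 3) and 86.5% ± 6.47 (SD, n = 3). Their ranges overlapped, with S34F replicate 3 at 79.1% and wild-type replicate 1 at 81.5%. Molecules with another exon form in this region stayed in the total, at 0.506%, 1.61% and 3.24% of wild-type and 2.61%, 0% and 4.6% of S34F reads. No isoform held both exons. The 87-base form of the macroH2A1.1 exon taken alone did not pass the test (log2 odds ratio −0.26, edgeR quasi-likelihood test, adjusted p = 0.931).

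**Figure D2:**
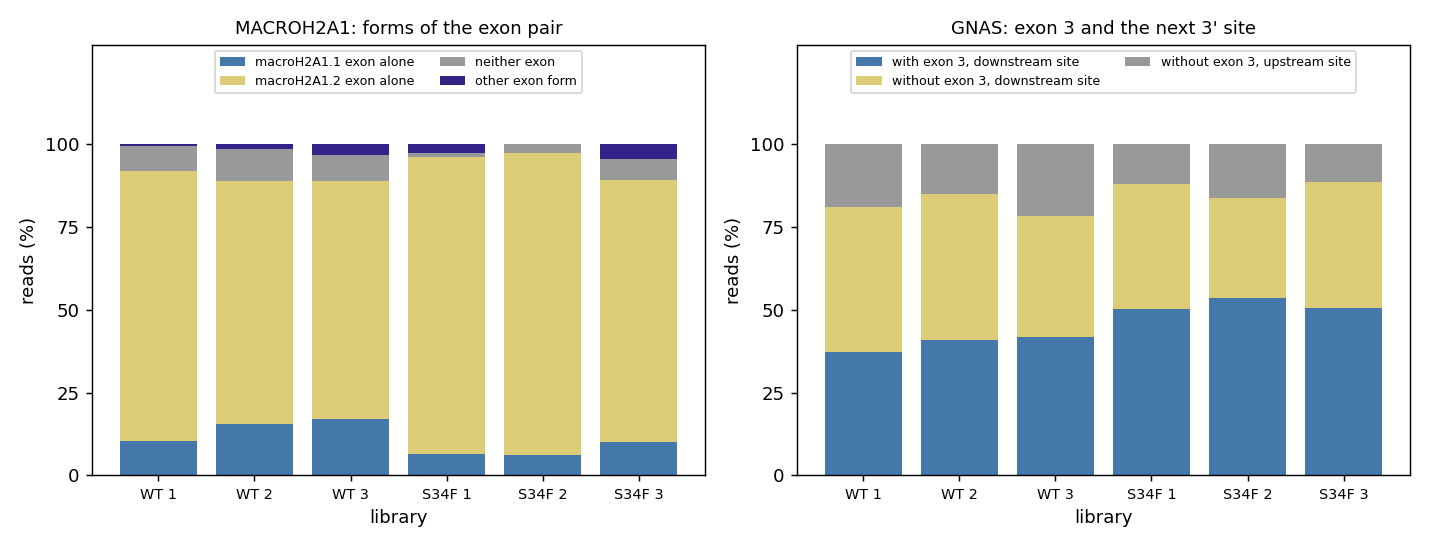
Stacked bars give, for each library, the percentage of reads assigned to spanning isoforms in each form, for the MACROH2A1 exon pair and for GNAS exon 3 with the 3′ site after it. In MACROH2A1 the macroH2A1.1 bar is 10.4% to 17.1% in wild-type and 6.29% to 10% in S34F libraries, and in GNAS the bar with exon 3 is 37.2% to 41.8% and 50.2% to 53.6%.

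Of the other MACROH2A1 choices none passed the test. The 107-base exon after CAG at chr5:134705726-134705832 was used in 94.7% to 95.8% of wild-type and 97% to 98.6% of S34F reads, and the 198-base exon at chr5:134705096-134705293 in 94.1% to 96.5% and 97.4% to 99.3%. In neither exon did the ranges overlap, and neither was called (edgeR quasi-likelihood test, adjusted p = 0.4 and 0.238). Across all 19 tested choices of the gene the log2 odds ratio ran from −1.26 to 2.02, and the highest belonged to an exon skipped by few reads. The MACROH2A1 isoforms with most reads both hold the macroH2A1.2 exon. The first had 112, 40 and 69 wild-type and 44, 49 and 56 S34F reads (log2 difference 0.60, SE 0.36, edgeR quasi-likelihood test, adjusted p = 0.421). The second, ENST00000511689.1, had 70, 31 and 52 against 33, 32 and 44 (log2 difference 0.63, SE 0.35, edgeR adjusted p = 0.373).

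GNAS encodes the alpha subunit of the stimulatory G protein, which couples receptors to cyclic AMP, and its exon 3 of 45 bases adds residues in frame to give the long form. The exon was in 33.7%, 37% and 37.3% of wild-type reads (138 of 410, 95 of 257 and 180 of 482). In S34F libraries it was in 45%, 50.3% and 44.5% (116 of 258, 75 of 149 and 170 of 382). Every S34F library was above every wild-type library, in the reported direction. The difference in means, 36% ± 2.03 to 46.6% ± 3.24 (SD, n = 3 each), gave a log2 odds ratio of 0.60 (SE 0.19), and it did not pass the test (edgeR quasi-likelihood test, adjusted p = 0.0921 from an unadjusted p of 0.00149, and adjusted p = 0.466 with the replicate block). Its direction was the same without each library in turn, with log2 odds ratios of 0.51 to 0.73.

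Among reads that skip exon 3 and join exon 2 to the exon after it, the CTG site took 27.6%, 22.9% and 33.3% in wild-type libraries. In S34F libraries it took 22.2%, 31.9% and 19.8% of such reads, with overlapping ranges (log2 odds ratio −0.42, edgeR quasi-likelihood test, adjusted p = 0.683). In the B1 libraries alone the log2 odds ratio was 0.04. In isoforms spanning exon 3 and this site the choices went together: no isoform joined exon 3 to the CTG site. Molecules with exon 3 and the CAG site made up 37.2%, 40.9% and 41.8% of wild-type and 50.2%, 53.6% and 50.4% of S34F reads. Those without exon 3 were at 41.4% ± 4.34 and 35.2% ± 4.52 with the CAG site and at 18.6% ± 3.37 and 13.4% ± 2.66 with the CTG site (SD, n = 3 each). The other 10 GNAS choices had log2 odds ratios between −0.58 and 0.41 and none passed the test. The GNAS isoform with most reads, ENST00000371095.3, lacks exon 3 and had 70, 35 and 94 wild-type and 28, 23 and 39 S34F reads (log2 difference −0.02, SE 0.36, edgeR quasi-likelihood test, adjusted p = 0.986). The next, of 13 exons and without an annotated ID, had 72, 35 and 42 against 28, 22 and 32 (log2 difference 0.26, SE 0.34, edgeR adjusted p = 0.77).

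STRAP encodes a WD-repeat protein that is part of the SMN complex, which assembles spliceosomal RNA-protein particles. Its 136-base exon was used less in S34F cells. The exon was in 87.2%, 92.5% and 90.6% of wild-type reads (170 of 195, 147 of 159 and 375 of 414) and in 84.4%, 80% and 78.8% of S34F reads (27 of 32, 80 of 100 and 156 of 198). All S34F libraries were below all wild-type libraries, and S34F replicate 1, with the fewest reads, had a 95% Wilson interval of 68.2% to 93.1% that holds all 3 wild-type values. Such intervals cover counting error only, and reads amplified by PCR without molecular identifiers are not independent molecules. The means were 90.1% ± 2.67 and 81.1% ± 2.94 (SD, n = 3 each) and the log2 odds ratio was −1.20 (SE 0.32, edgeR quasi-likelihood test, adjusted p = 0.024). The replicate block ended the call (adjusted p = 0.0716), as did summing isolate 2 (0.421) or leaving out wild-type 2 (0.138), wild-type 3 (0.651), S34F 2 (0.146) or S34F 3 (0.605), while it held without wild-type 1 (0.0262) and S34F 1 (0.0391).

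The exon's length is not a multiple of 3. An annotated isoform of 9 exons without it, ENST00000541731.1, had 15, 8 and 30 reads in wild-type and 3, 19 and 35 in S34F libraries, with a log2 difference in level of 1.12 that did not pass the test (SE 0.49, edgeR quasi-likelihood test, adjusted p = 0.233). The isoform with most reads, ENST00000419869.2, contains the exon and had 71, 62 and 228 against 11, 38 and 87 reads (log2 difference −0.30, edgeR quasi-likelihood test, adjusted p = 0.785). S34F replicate 1 had the fewest reads of both. The 66-base STRAP exon after CAG at chr12:16053881-16053946 was in 96.1%, 93.8% and 96.5% of wild-type and 100%, 98.8% and 97.6% of S34F reads, with ranges apart and no call (log2 odds ratio 1.12, edgeR quasi-likelihood test, adjusted p = 0.657).

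CHCHD7 encodes a small protein with paired cysteine motifs of the kind imported into the mitochondrial intermembrane space. An upstream 3′ splice site at position 57128948 of chromosome 8, which lengthens the exon by 44 bases over the site at 57128992, was used less in S34F cells. It took 19 of 63, 13 of 55 and 11 of 54 reads in wild-type libraries, which is 30.2%, 23.6% and 20.4%. In S34F libraries it took 2 of 32, 0 of 24 and 7 of 82 reads (6.25%, 0% and 8.54%), and 0 of 24 reads allows a share of up to 12.5%, taking 3 reads as what a count of 0 can hide (the upper Wilson bound is 13.8%). The highest S34F library was below the lowest wild-type library, with Wilson 95% intervals of 4.2% to 16.6% and 11.8% to 32.9%. The log2 odds ratio was −2.19 (SE 0.59, edgeR quasi-likelihood test, adjusted p = 0.0226, and 0.0471 with the replicate block). It was lost with the isolate 2 libraries summed (edgeR adjusted p = 0.0996) and without the B1/B2 term (0.15). Each of the 6 libraries was needed for the call (adjusted p = 0.181, 0.0618 and 0.104 without wild-type 1, 2 and 3, and 0.13, 0.184 and 0.102 without S34F 1, 2 and 3).

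The 44 bases do not keep the reading frame. The CHCHD7 isoform with most reads, ENST00000355315.3, had 25, 28 and 27 wild-type and 18, 13 and 54 S34F reads. It uses the downstream site and lacks an exon further upstream, at 57125321 to 57125468, which is not the exon joined to that site. Its level was higher by 0.94 on the log2 scale without passing the test (SE 0.38, edgeR quasi-likelihood test, adjusted p = 0.184). The second CHCHD7 isoform by reads, too low to test, had 11, 8 and 7 against 5, 6 and 9. The 148-base exon that the first lacks was in 42.3%, 38.3% and 38.3% of wild-type and 33.3%, 27.8% and 24.7% of S34F reads. These ranges did not overlap, and the log2 odds ratio of −0.73 did not pass the test (edgeR quasi-likelihood test, adjusted p = 0.698).

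**Figure D3:**
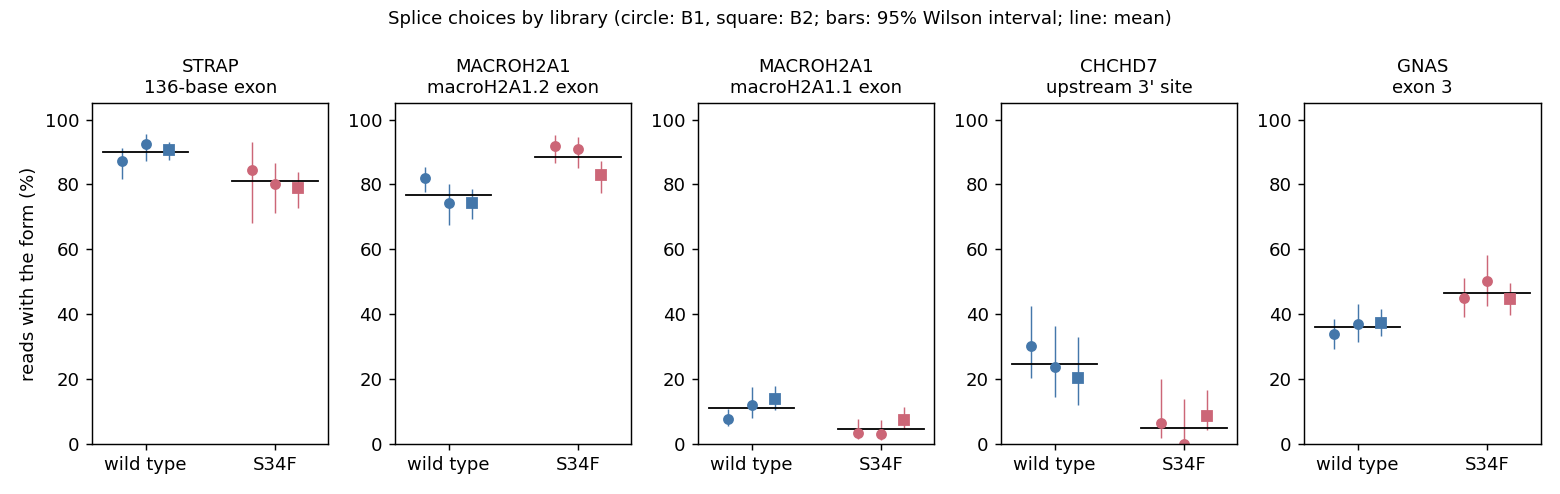
Points give the percentage of informative reads with the form in each library, with 95% Wilson intervals, for the 4 called choices and GNAS exon 3, and lines give group means. In all 5 panels the wild-type and S34F points do not overlap, and the widest interval is that of STRAP in S34F replicate 1, 68.2% to 93.1%.

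DEK encodes a chromatin protein that binds DNA and histones. Its single tested choice, the 102-base coding exon 3 of 11 at chr6:18258535-18258636, was in 92%, 97.4% and 95.8% of wild-type reads and 83.3%, 88% and 86.5% of S34F reads. Every S34F library was lower, on 18 to 37 reads each. The log2 odds ratio of −1.70 (SE 0.84) did not pass the test (edgeR quasi-likelihood test, adjusted p = 0.506 from an unadjusted p of 0.0432). Most DEK reads, 163 of 191, belonged to the full isoform ENST00000397239.3, and 16 to an isoform of 7 exons without this exon, with 2, 1 and 2 wild-type and 3, 3 and 5 S34F reads.

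ITGB3BP encodes CENP-R, a member of the protein network at centromeres. The 50-base exon after AAG at chr1:63913236-63913285, near the 3′ end of the gene, was in 9 of 21, 6 of 19 and 13 of 32 wild-type reads. It was in 2 of 10, 1 of 16 and 16 of 57 S34F reads, so that the highest S34F share, 28.1%, was under the lowest wild-type share, 31.6%. The difference did not pass the test (log2 odds ratio −1.29, SE 0.60, edgeR quasi-likelihood test, adjusted p = 0.457). The 136-base coding exon at chr1:63955754-63955889 went the other way, at 86.4%, 70% and 84.4% against 90%, 93.8% and 91.8%, also without a call (log2 odds ratio 1.28, edgeR quasi-likelihood test, adjusted p = 0.664). The other 3 choices of the gene had overlapping ranges. The isoforms with most reads were ENST00000271002.10, without the 50-base exon, at 8, 7 and 11 against 5, 11 and 21 reads, and ENST00000489099.1, with it, at 7, 2 and 4 against 1, 1 and 14.

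MED24 encodes a subunit of the Mediator tail, through which transcription factors reach RNA polymerase II, and it had the most isoforms of the 10 genes (51, none with an annotated ID) and 22 tested choices. None passed the test, and 2 had an unadjusted p under 0.05. The 92-base exon at chr17:38176781-38176872 was in 3.38%, 4.08% and 4.03% of wild-type and 3.31%, 1.31% and 2.59% of S34F reads (log2 odds ratio −0.66, SE 0.33, edgeR quasi-likelihood test, adjusted p = 0.495). The highest S34F library was just below the lowest wild-type library. An upstream 3′ site at 38176735, against the site at 38176606, took 4.2%, 5.47% and 3.89% against 3.98%, 1.76% and 2.53%, with overlapping ranges (log2 odds ratio −0.71, edgeR quasi-likelihood test, adjusted p = 0.502). Several further choices of the gene had ranges apart by small margins, in both directions and without a call. Among them, the 5′ site at 38179281 took 5.67%, 6.4% and 6.94% of wild-type and 3.98%, 5.36% and 4% of S34F reads. The 81-base exon at chr17:38176526-38176606 was in 98.8%, 99% and 99% against 99.4%, 99.1% and 99.3%. Of the more common forms, the 57-base exon at chr17:38191169-38191225 was in 50.7% ± 1.64 of wild-type and 48.6% ± 3.51 of S34F reads (SD, n = 3 each), and the site at 38185257 was used in 35.1% ± 0.556 and 36.4% ± 4.94.

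In the test of isoform usage, which asks whether the forms of a gene shift against each other, MED24 had the smallest p of the 6 genes tested and did not pass (edgeR diffSpliceDGE with Simes p-values per gene, adjusted p = 0.338). No gene of the 6 passed, 1 was under an unadjusted 0.05, and 0.615% of all 2276 genes passed. Of the tested MED24 isoforms, the one with the most negative difference was a fragment of 4 exons with 27, 17 and 24 wild-type and 1, 0 and 9 S34F reads (log2 difference −1.89, edgeR quasi-likelihood test, adjusted p = 0.0633). It was chosen after its values were seen. The MED24 isoforms with most reads had 413, 189 and 167 against 87, 96 and 163 reads (log2 difference 0.01) and 395, 199 and 181 against 94, 92 and 133 reads (log2 difference −0.11).

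CEP164 encodes a protein of the distal appendages of centrioles, needed to build cilia. Reads reached only the first exons of the gene in the isoforms with most reads, which have 5 and 4 exons. The 103-base exon at chr11:117209282-117209384 was in 95.3%, 98.6% and 92.6% of wild-type and 92.6%, 84.6% and 87.1% of S34F reads, so that wild-type replicate 3 and S34F replicate 1 had the same share (log2 odds ratio −1.29, SE 0.78, edgeR quasi-likelihood test, adjusted p = 0.664). The 76-base exon at chr11:117206321-117206396 was in 74.2% ± 7.03 and 79.7% ± 10.5 (SD, n = 3 each), with overlapping ranges (log2 odds ratio 0.55, SE 0.50, edgeR quasi-likelihood test, adjusted p = 0.823). S34F replicate 2 had 13 informative reads for either exon. The isoform of 5 exons had 66, 48 and 36 wild-type and 40, 7 and 24 S34F reads (log2 difference −0.01) and that of 4 exons 15, 21 and 14 against 10, 4 and 3 (log2 difference −0.47, SE 0.51, edgeR adjusted p = 0.713).

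CTNNB1 encodes beta-catenin, the link between cadherins and actin and the effector of canonical Wnt signalling. All 3 tested choices lie in its last intron, behind the stop codon, where 206 of the 221 bases of exon 15 are coding. None passed the test. The choice with the smallest p was the 305-base intron, where reads that retain it were set against reads spliced to 41281151. Reads spliced to 41281310 were left out, so this is not a share of all reads of the gene. By this count it was retained in 97.5%, 96.5% and 89.8% of wild-type and 98.9%, 94% and 88.7% of S34F reads (log2 odds ratio −0.20, SE 0.42, edgeR quasi-likelihood test, adjusted p = 0.946). The 464-base intron, set against reads spliced to 41281310, was retained in 50.8%, 48.5% and 50.8% of wild-type and 53.8%, 51.6% and 46.3% of S34F reads (log2 odds ratio 0.05, SE 0.23, edgeR quasi-likelihood test, adjusted p = 0.976). The 3′ site after CAG at 41281151, against the site after GAG at 41281310, took 2.54%, 3.29% and 10.5% of wild-type and 1.24%, 6.33% and 9.88% of S34F reads (log2 odds ratio 0.16, SE 0.43, edgeR adjusted p = 0.957). The B2 library was the highest in both genotypes, and the part of this mark was not tested. Of the CTNNB1 isoforms, ENST00000349496.5, which retains the intron, had 633, 469 and 202 wild-type and 185, 158 and 126 S34F reads (log2 difference −0.24, SE 0.33, edgeR adjusted p = 0.784). An isoform of 13 exons, which splices to 41281310, had 614, 499 and 196 against 159, 148 and 146 (log2 difference −0.27, SE 0.34, edgeR adjusted p = 0.753).

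PICALM encodes a clathrin assembly protein and was the 1 gene with no tested choice. It had 62 reads in all, 14, 10 and 24 in wild-type and 2, 4 and 8 in S34F libraries, in 5 isoforms with no annotated ID. Of its 2 choices, the 24-base exon at chr11:85689113-85689136 was in 13 of 13, 7 of 7 and 21 of 24 wild-type and 2 of 2, 4 of 4 and 7 of 7 S34F reads. Its isoforms with most reads had 5, 6 and 12 against 2, 1 and 1 reads and 4, 1 and 4 against 0, 3 and 2. A difference was not detectable at this depth.

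The 3 bases before the exon could be read for part of the tested cassette exons. In MACROH2A1 and STRAP 5 of them followed CAG, and all 5 had a positive log2 odds ratio (median 1.13, 1 called higher), though 4 of the 5 are exons of MACROH2A1. In GNAS, ITGB3BP and MACROH2A1 7 followed TAG, and 2 of the 7 had a positive one (median −0.13, 1 called lower). Another 5 followed AAG, in GNAS, ITGB3BP and MACROH2A1, of which 4 were positive (median 0.44, 0 called, 2 at an unadjusted p of 0.05). Over all 10115 cassette exons tested the median was 0.01, with 26 called higher and 109 lower. These are counts of few genes with exons that overlap, and no test was made of them. Pairs of 3′ sites 3 bases apart were not called in any gene. The STRAP site after CAG at 16053881 took 77.2%, 80.1% and 90% of wild-type and 78.1%, 79.8% and 85.1% of S34F reads against the site after AAG. In MACROH2A1 exon 5 a run of 3 sites, all after AAG, gave log2 odds ratios of −0.11, −0.09 and 0.03. Its letters at chr5:134696280-134696314 (minus strand), with the 3 trinucleotides that end the intron in each form in capitals, repeat AAG at each site.
MACROH2A1 exon 5: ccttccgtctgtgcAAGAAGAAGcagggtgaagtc

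Gene levels, given as TMM-scaled CPM, changed in none of the 9 genes tested (edgeR quasi-likelihood test, 0 of 9 at an adjusted p of 0.05, against 3.24% of 7033 genes; DESeq2 also 0), and 1 of 9 was under an unadjusted p of 0.05, against 17% of all genes. PICALM was too low to test. In a bulk library, fewer cells that express a gene and less RNA per cell cannot be told apart. ITGB3BP had the smallest p: its level was 13.1, 17 and 19 CPM in wild-type and 16.4, 34 and 57.6 in S34F libraries (log2 difference 1.09, SE 0.38, edgeR quasi-likelihood test, adjusted p = 0.155). S34F replicate 1 lay within the wild-type range, and without it the adjusted p was 0.0298. CHCHD7 and GNAS were higher in every S34F library than in any wild-type library, and 13.1% of all genes had such ranges without overlap, in either direction. CHCHD7 was at 37.5, 46.7 and 32.1 against 52.6, 51 and 77.5 CPM (log2 difference 0.65, SE 0.32, edgeR quasi-likelihood test, adjusted p = 0.31). GNAS was at 263, 249 and 338 against 462, 355 and 406 CPM (log2 difference 0.54, SE 0.28, edgeR quasi-likelihood test, adjusted p = 0.351).

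MACROH2A1 was at 203 ± 39.4 and 264 ± 39.9 CPM and DEK at 25.2 ± 9.14 and 39.2 ± 12.3 (SD, n = 3 each), with overlapping ranges. CTNNB1 showed the B1/B2 split again, at 752, 836 and 250 CPM in wild-type and 568, 671 and 272 in S34F libraries, with a log2 difference between genotypes of −0.20. MED24 was at 976 ± 383 and 836 ± 135 CPM, CEP164 at 51.8 ± 12.2 and 53.4 ± 36.3, and STRAP at 166 ± 70.3 and 151 ± 85.9 (SD, n = 3 each). In STRAP, S34F replicate 1 stood at 52.6 CPM beside 212 and 187 in the other S34F libraries. Among single isoforms, 46 of the 153 were tested, none changed in the edgeR quasi-likelihood test (8 at an unadjusted p of 0.05), and 4.26% of all 13961 isoforms did.

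**Figure D4:**
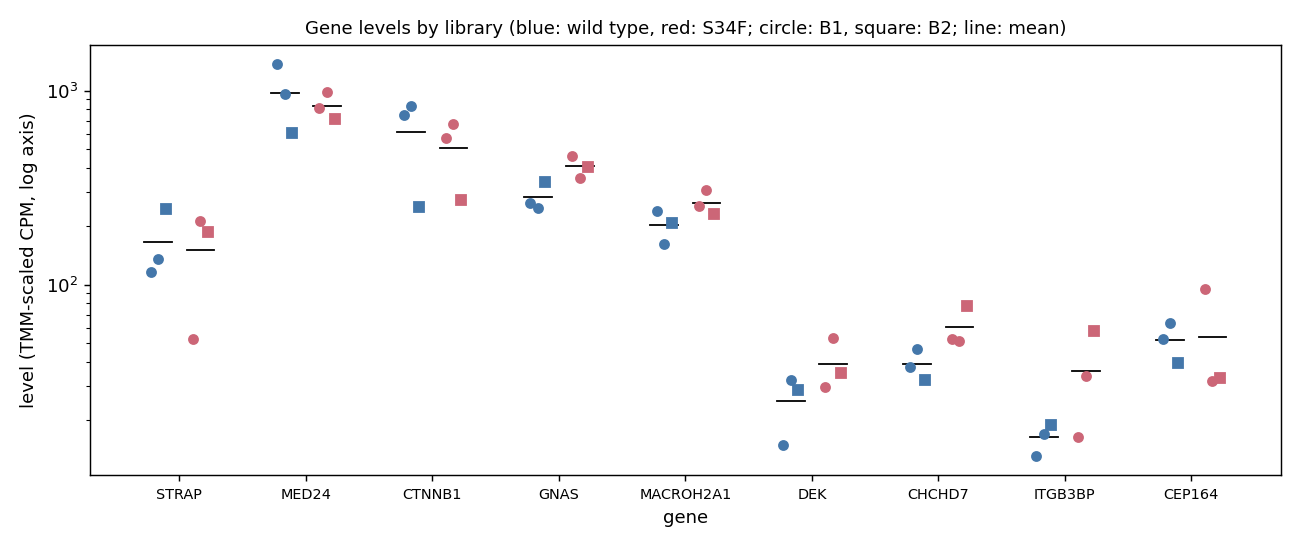
Points give the level of 9 genes in each library in TMM-scaled CPM on a log axis, wild-type in blue and S34F in red, with squares for B2 and lines for group means. CHCHD7 and GNAS are the genes whose S34F points all lie above the wild-type points, and CTNNB1 shows its squares at 250 and 272 CPM, apart from its circles.

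For comparison, another 20 genes named as targets of the mutation were read the same way, a list written with earlier results of these data known, 3 of its genes (UPP1, BUB3 and SAT1) among those results. Of these, 17 had reads and 4 had tested choices: UPP1, BUB3, SAT1 and SRP19. In the edgeR quasi-likelihood test, 15 of their 83 choices changed, 8 higher and 7 lower, beside 1.22% of all choices (0.35% higher, 0.872% lower). SAT1 held 6 of these calls, UPP1 and BUB3 4 each and SRP19 1, so that all but 1 lie in the genes listed with their results known. The 4 with the smallest p lie in SAT1, UPP1 and SRP19. SAT1, the first enzyme of polyamine breakdown, had its 110-base exon at chrX:23802411-23802520 in 25.7%, 37.4% and 35.2% of wild-type and 4.37%, 5.49% and 5.92% of S34F reads (log2 odds ratio −3.12, SE 0.24, edgeR adjusted p = 2.87e-34). The intron behind it was retained in 27.4%, 21.1% and 71.6% against 62.4%, 71.2% and 91% of informative reads, with the B2 library highest in both genotypes and ranges that overlapped (log2 odds ratio 2.43, SE 0.25, edgeR adjusted p = 2.62e-19). Reads that skip the exon were left out, so this is not a share of all reads of the gene. Set against those skipping reads, retention of the whole span at chrX:23802001-23803444 was 7.57%, 9.39% and 42.8% in wild-type libraries. In S34F libraries it was 4.83%, 9.72% and 28.4%, without a call (log2 odds ratio −0.52, edgeR adjusted p = 0.414). In UPP1, which encodes uridine phosphorylase, the 47-base exon at chr7:48141421-48141467 was in 69.5%, 70% and 69.3% of wild-type and 29.9%, 22.4% and 21.3% of S34F reads (log2 odds ratio −2.79, SE 0.32, edgeR adjusted p = 4.1e-15). In SRP19, a protein of the signal recognition particle, the upstream of a pair of 3′ sites, 32 bases apart, took 12.7%, 13.3% and 15.9% of wild-type and 51.5%, 38.6% and 50% of S34F reads (log2 odds ratio 2.45, SE 0.29, edgeR adjusted p = 2.71e-13).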

How the data were processed

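Poly(A) RNA was reverse transcribed from a poly(A) primer by the Smart-Seq2 method and read on a MinION, per the labels' protocols. The authors deposited raw read counts per isoform over 1 isoform set of all libraries, and its exon positions (start and end, deposited as other values) were used as given. Positions are on hg19, per the submitters' processing notes. For aligner, filters, read assignment and strand use, nothing was given in the sources used here. Members, lists and rules for named genes were chosen with earlier results of these data known. By rule, every member was given, with full statistics for its 2 choices of smallest p and its 2 isoforms with most reads.

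Counts per gene and isoform were tested with edgeR 4.0.16 (R 4.3.3): quasi-likelihood test, TMM, filterByExpr (at least 10 reads, 15 in total), a term for B1/B2, and Benjamini-Hochberg adjustment over all features at 0.05. Choices with 10 or more informative reads per library were tested as 2 counts per library with library terms. For an alternative site, the longer form counted isoforms whose exon holds both sites. The prior degrees of freedom of this model were infinite, so all choices share 1 trended spread. limma 3.58.1 on log odds (offset 0.5) and DESeq2 1.42.0 were alternatives. The replicate numbers were taken as pairs for the replicate block. Same-numbered libraries deviated together at gene level (correlations 0.488, 0.161 and 0.848). B1 libraries of unlike number did so too (0.544 and 0.326), so these values do not set the numbered pairs apart from the B1/B2 mark. Scripts used Python 3.11.15, and the gene and choice tests were also run on simulated counts. Simulated choices had no spread between libraries, and changes were set only in well-covered ones. That run therefore does not show how the choice test handles such spread or low depth. Bases before an AG came from GENCODE 29 transcripts that cover the intron's end, found for 37 of 84 matched exon starts of the 10 genes, and no coordinate was converted between builds.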

Additional observations from a re-analysis of the deposited data

How the results depend on the processing

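Of 26 single results, 20 kept their direction under all alternatives run, and the 15 values that changed sign all belonged to results that passed no test in any setting. Without 1 library the STRAP level ran from −0.81 to 0.24, the MED24 level from −0.38 to 0.03 and the CEP164 level from −0.55 to 0.33 (log2 differences), and in B1 libraries only STRAP was at 0.03. The CEP164 level was −0.05 with the replicate block, −0.05 where each library had to reach 10 reads and −0.16 with no filter. Without 1 library the log2 odds ratio ran from −0.66 to 0.04 for the GNAS site after CTG (0.04 in B1 only), from −0.59 to 0.26 for the shorter CTNNB1 intron and from −0.36 to 0.49 for the CTNNB1 site. The 4 called choices of the 10 genes became 0 with no B1/B2 term, 2 with the replicate block, 0 in B1 libraries only, 0 with isolate 2 summed, 0 in limma, 2 among isoforms of at least 10 reads, and 0 to 2 without 1 library (2 without wild-type 1, 1 without S34F 1, 0 without each other library). The cause was not tested. The 4 calls kept their direction in all 14 alternatives and passed in 5 (STRAP), 5 (macroH2A1.2), 0 (macroH2A1.1) and 3 (CHCHD7) of them. The 15 calls of the other named targets became 6 with no B1/B2 term, 8 in B1 only, 9 with isolate 2 summed, 0 in limma and 8 to 15 without 1 library (8 without wild-type 3 and without S34F 3). Called genes went from 0 to 0 to 1 without 1 library (1 without S34F 1, ITGB3BP), and called isoforms from 0 to 1 in B1 only and 0 to 2 without 1 library (2 without S34F 2). Isoform usage stayed at 0 throughout. The replicate block, from the pairing described above, ended the calls of STRAP (adjusted p = 0.0716) and the macroH2A1.1 exon (0.102, edgeR quasi-likelihood test) and no other call of the 10 genes. Depth limits DEK, ITGB3BP, CEP164 and CHCHD7, with 10 to 85 informative reads a library, and PICALM most.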
